A study of Mus musculus with 6 samples.

Results

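The 10 genes described here encode the lipid droplet coats of myofibers (*Plin2*, *Plin3*, *Plin4* and *Plin5*), the triglyceride lipases and their inhibitor (*Pnpla2*, *Lipe*, *Mgll* and *G0s2*) and the DGAT enzymes (*Dgat1* and *Dgat2*). They were picked by gene symbol, and 10 of 10 were found among the 37979 genes of the deposited table. All 10 passed the filter of the test, a mean of at least 0.5 FPKM (fragments scaled to transcript length and to the mapped fragments of the library) over the libraries, and so did 12334 genes in all. The libraries came from hindlimb gastrocnemius (GAS) muscles of male mice, 20 weeks of age and not treated, with 3 wildtype (WT) and 3 Kvβ2 knockout (KO) mice and 1 library per mouse. Kvβ2-/- mice and their WT controls came from crosses between carriers of the null allele of *Kcnab2*, which encodes the Kvβ2 subunit of voltage-gated potassium channels, so every tissue of the KO mice carried the deletion and not muscle alone. The libraries of both genotypes carry the replicate numbers 1, 7 and 8. Since whole muscle was sequenced, fewer cells of a type and less RNA per cell cannot be told apart.

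Myofibers keep part of their fuel as triglyceride in lipid droplets, which lie beside the mitochondria. DGAT1 and DGAT2 add the last fatty acid to diacylglycerol and so complete triglyceride, perilipins coat the droplet and govern which proteins reach it, and the lipases take the fatty acids off again in order: ATGL (the product of *Pnpla2*) acts on triglyceride, hormone-sensitive lipase (*Lipe*) on diacylglycerol and monoacylglycerol lipase (*Mgll*) on monoacylglycerol. G0S2 binds ATGL and inhibits it, while ABHD5 (CGI-58) activates it. Adipocytes use the same enzymes at high levels together with *Plin1*, so fat cells that lie between the myofibers can also contribute these transcripts.

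The depth, estimated from the steps of low FPKM values, was about 15000000, 19350000 and 16150000 fragments in KO replicates 1, 7 and 8 and 20650000, 20600000 and 21550000 in WT replicates 1, 7 and 8. *Kcnab2* had 0.233, 0.1 and 0.11 FPKM for WT replicates 1, 7 and 8 against 0, 0.0151 and 0 FPKM for KO replicates 1, 7 and 8. The libraries thus went with their labels, but at values under the filter of 0.5 FPKM, so *Kcnab2* was not tested. The 8 myofiber markers (among them *Acta1*, *Ckm* and *Des*) were at 132.8 FPKM or more in every library, while the fast fiber genes *Myh4*, *Tnnt3* and *Atp2a1* were listed at 0 in all 6, which is a feature of the table. Across tested genes the log2 fold change increased with exonic GC content (Spearman's rho = 0.70 over 11985 genes, which are not independent replicates), and the 10 genes had 51.0% to 58.7% GC against a median of 50.1% for all tested genes. Values are therefore also given after each library was corrected for its trend on GC content.

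None of the 10 genes passed limma's test at an adjusted p under 0.05, a threshold that 0.324% of all tested genes passed (0.251% higher in the KO mice and 0.073% lower). With limma's array weights, which weight each library by its scatter, 6 of the 10 passed it, all higher, in a fit that called 25.5% of all tested genes and 15.1% as higher. At an unadjusted p under 0.05, 5 of the 10 (*Plin3*, *Plin4*, *Pnpla2*, *Lipe* and *Dgat2*) were higher in the KO mice and 0 were lower, where 15.3% of all tested genes were higher and 10.9% lower. For 5 genes (*Plin3*, *Plin4*, *Pnpla2*, *Lipe* and *Mgll*) the lowest KO library exceeded the highest WT library, which held for 18.3% of all tested genes, and for 0 genes the genotypes were apart the other way, which held for 16.2%. A comparison of 3 against 3 cannot give an exact permutation p under 0.1, and these 5 genes each gave 0.1 (two-sided). The median log2 fold change of the 10 genes was 0.65, against 0.010 for all tested genes. After the correction for GC content it was 0.24, with 3 of the 10 genes (*Plin3*, *Plin4* and *Lipe*) higher at an unadjusted p under 0.05 where 5.33% of all tested genes were, 0 lower where 5.40% were, and with 1 gene (*Plin4*) whose genotypes did not overlap where 8.14% of all tested genes had all KO libraries on top.

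**Figure D1:**
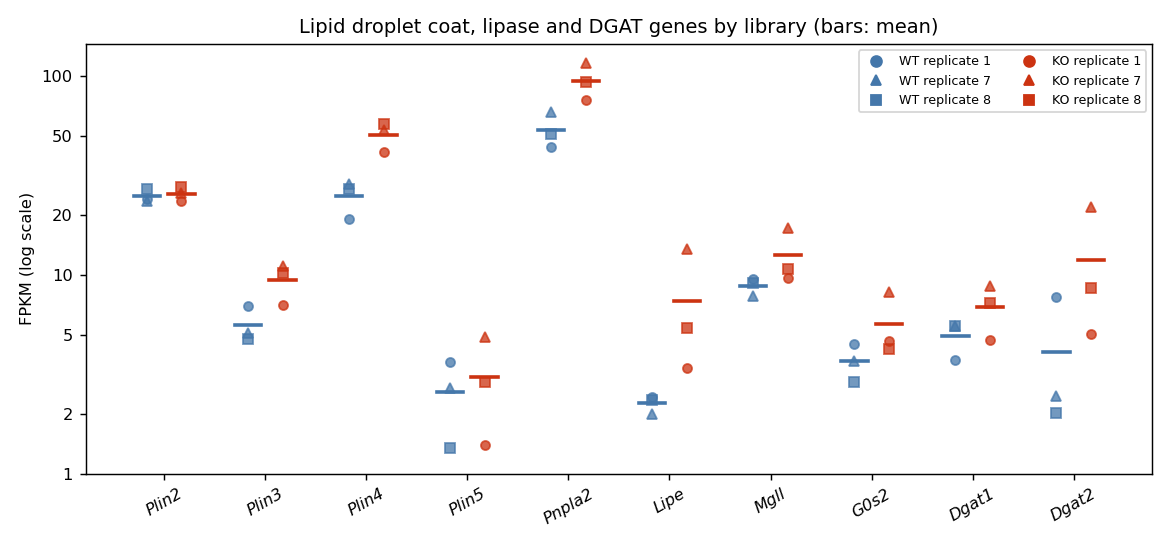
FPKM of the 10 genes on a log axis, with 1 symbol per library (blue, WT; red, KO; circles, triangles and squares for replicates 1, 7 and 8) and a bar at the mean of each genotype. *Plin4* and *Pnpla2* separate by genotype, *Plin2* lies at 23.5 to 27.6 FPKM in every library, and KO replicate 7 is the highest library for 8 of the 10 genes.

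FPKM is scaled to transcript length, so the genes can be set side by side. The levels here were not corrected for GC content, which ran from 51% (*Plin2*) to 58.7% (*Plin5*). In WT muscle *Pnpla2* was the most abundant of the 10, at 53.9 ± 11.3 FPKM (SD, n = 3), and its range did not meet that of any other. *Plin2* at 24.9 ± 1.85 FPKM (SD, n = 3) and *Plin4* at 24.9 ± 5.09 FPKM (SD, n = 3) followed and overlapped each other, and *Mgll* at 8.81 ± 0.895 FPKM (SD, n = 3) stood between them and the rest. From *Plin3* (5.63 FPKM) through *Dgat1*, *Dgat2*, *G0s2* and *Plin5* to *Lipe* (2.26 FPKM), each gene's WT range overlapped that of the next in order. In KO muscle *Pnpla2*, *Plin4* and *Plin2* came first, in that order and without overlap between neighbors, since *Plin4* was above *Plin2* in 3 of 3 KO libraries. From *Mgll* (12.6 FPKM) down to *Plin5* (3.05 FPKM) each KO range overlapped the next.

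*Plin4* encodes perilipin 4, a long, repeat-rich coat protein found in adipocytes and striated muscle. In replicates 1, 7 and 8 it had 19.1, 28.6 and 27.0 FPKM for WT and 41.5, 53.6 and 57.4 FPKM for KO mice, so the lowest KO library lay well above the highest WT library. The log2 fold change was 1.03 (standard error 0.19, 95% confidence interval 0.59 to 1.48, limma adjusted p = 0.0667), which corresponds to 2.05-fold more in the KO mice. When single libraries were left out it ranged from 0.85 to 1.17. After the correction for GC content it was 0.65 (standard error 0.15, adjusted p = 0.285), and the KO libraries still lay above the WT libraries, in a table where genes within 1 percentage point of its GC content (55.9%) had a median log2 fold change of 0.37. *Plin4* was 1 of the genes that the study selected as increased on these same libraries, as was *Plin3*, so neither is independent evidence of a direction. The gene (ENSMUSG00000002831) spans chr17:56100591-56109803 on the minus strand of GRCm38, and *Hdgfl2* overlaps it on the other strand. *Hdgfl2* was at 5.15 to 5.71 FPKM in WT and 7.75 to 8.58 FPKM in KO muscle, below *Plin4* in each library. The library kit keeps strand, but the strand setting of the counting is not given in the sources used here.

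*Plin3* encodes the widely expressed perilipin 3, which moves from the cytosol onto nascent droplets. Its FPKM values were 6.98, 5.12 and 4.78 for WT replicates 1, 7 and 8 against 7.04, 11.1 and 10.2 for KO replicates 1, 7 and 8. KO replicate 1 and WT replicate 1 were nearly equal, so the separation of the genotypes rested on replicates 7 and 8. This gave a log2 fold change of 0.73 (standard error 0.21, 95% confidence interval 0.23 to 1.23, limma adjusted p = 0.103) and 0.61 (standard error 0.22, adjusted p = 0.410) after the correction for GC content. *Plin3* (ENSMUSG00000024197, chr17:56277476-56292873, minus strand) has 52.1% GC, and the median of genes within 1 percentage point of that was 0.11.

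*Plin2* encodes perilipin 2, the general coat of droplets outside fat tissue. The WT replicates 1, 7 and 8 gave 24.1, 23.6 and 27.0 FPKM, and the KO replicates of the same numbers gave 23.5, 25.8 and 27.6 FPKM. The genotypes overlapped, with the highest library only 1.17 times the lowest. Its log2 fold change of 0.039 (standard error 0.11, limma adjusted p = 0.848) had a 95% confidence interval from -0.22 to 0.30, and its sign changed under median centring, the corrections for GC content and length, and without KO replicate 8. *Plin2* (ENSMUSG00000028494) lies on the minus strand at chr4:86648386-86670060.

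*Plin5* encodes perilipin 5, which tethers droplets to mitochondria in oxidative tissue and lies next to *Plin4* on the same strand, with 1797 bases between them. In replicates 1, 7 and 8 it had 3.64, 2.71 and 1.34 FPKM for WT and 1.39, 4.89 and 2.88 FPKM for KO mice. The genotypes overlapped, with KO replicate 7 above the WT range and WT replicate 8 just under the KO range, and the spread was 2.71-fold in WT and 3.53-fold in KO muscle. This was a log2 fold change of 0.18 (standard error 0.49, 95% confidence interval -0.97 to 1.33, limma adjusted p = 0.839) and -0.38 after the correction for GC content. It was -0.23 without KO replicate 7 and -0.21 without WT replicate 8. WT replicate 8 and KO replicate 1, which had the least *Plin5*, were also the libraries with the lowest summed FPKM of the 8 slow fiber markers. That sum came to 823.9, 581 and 43.1 FPKM for WT replicates 1, 7 and 8 against 307.7, 997.2 and 1697 FPKM for KO replicates 1, 7 and 8. *Myh7*, the slow myosin heavy chain, had 24.3, 22.1 and 0.0513 FPKM for WT replicates 1, 7 and 8 against 15.2, 50.5 and 77.4 FPKM for KO replicates 1, 7 and 8, and the part of slow fibers in the *Plin5* values was not tested.

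Relative to *Plin2*, *Plin4* was at 0.794, 1.21 and 0.998 in WT replicates 1, 7 and 8 and at 1.76, 2.08 and 2.08 in KO replicates 1, 7 and 8. This ratio does not depend on the scaling of a library, but it changed with the correction for GC content. In the values as deposited the genotypes did not overlap, with a log2 difference of 0.99 (two-sided exact permutation p = 0.1, and 0.350 adjusted over 7 ratios). After the correction the log2 difference was 0.66 (exact permutation p = 0.1). The ratio of *Plin3* to *Plin2* did not overlap either (log2 difference 0.69, exact permutation p = 0.1), but did after the correction for GC content (0.62, exact permutation p = 0.2), while that of *Plin5* to *Plin2* did (0.14, exact permutation p = 0.8). Shares were computed on the values as deposited, without the correction for GC content. *Plin4* made up 42.7% ± 6.35 (SD, n = 3) of the summed perilipin FPKM in WT and 57.1% ± 1.28 (SD, n = 3) in KO muscle. *Plin2* made up 43.0% ± 3.18 (SD, n = 3) in WT and 29.1% ± 2.63 (SD, n = 3) in KO muscle, at nearly the same FPKM. The sum itself had a mean of 58.0 ± 3.65 FPKM (SD, n = 3) for WT and 89.0 ± 13.6 FPKM (SD, n = 3) for KO mice.

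**Figure D2:**
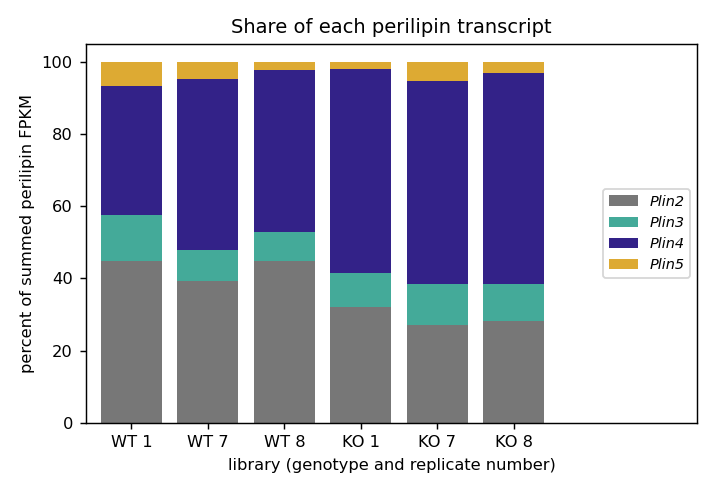
Percent of the summed FPKM of the 4 perilipins taken by each, in the 6 libraries (genotype and replicate number on the horizontal axis). The values are as deposited, without the correction for GC content. *Plin4* takes 35.5% to 47.6% in the WT and 56.2% to 58.5% in the KO libraries, and *Plin2* takes 39.3% to 44.9% and 27.0% to 32.0%.

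*Pnpla2* encodes ATGL, the lipase that starts the breakdown of stored triglyceride. Its FPKM values were 44.3, 66.4 and 51.1 for WT replicates 1, 7 and 8 against 75.7, 116.5 and 93.6 for KO replicates 1, 7 and 8. Each KO library exceeded each WT library. On the log2 scale the difference was 0.82 (standard error 0.20, 95% confidence interval 0.35 to 1.29, limma adjusted p = 0.0804), or 1.76-fold, and ranged from 0.66 to 0.98 when single libraries were left out. The correction for GC content lowered it to 0.32 (standard error 0.16, adjusted p = 0.519) and let the genotypes overlap. At 57.6% its GC content is among the highest of the 10, and genes within 1 percentage point of it had a median log2 fold change of 0.48. *Pnpla2* (ENSMUSG00000025509) lies on the plus strand at chr7:141455198-141460743.

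The windows before the transcription start of *Plin4*, *Plin3* and *Pnpla2*, which separated the genotypes with the narrowest spread among KO libraries, are printed with that of *Plin2*, which stayed level. Each is the 250 bases before the RefSeq start on GRCm38.p6, read 5′ to 3′ along the gene, at chr17:56109783-56110032 (minus strand) for *Plin4*, chr17:56290512-56290761 (minus strand) for *Plin3*, chr7:141454938-141455187 (plus strand) for *Pnpla2* and chr4:86670060-86670309 (minus strand) for *Plin2*. Capitals mark matches, on either strand, to AGGTCA (the core of nuclear receptor sites), CACGTG (E-box), CCAAT or GGGCGG (GC box).
Plin4: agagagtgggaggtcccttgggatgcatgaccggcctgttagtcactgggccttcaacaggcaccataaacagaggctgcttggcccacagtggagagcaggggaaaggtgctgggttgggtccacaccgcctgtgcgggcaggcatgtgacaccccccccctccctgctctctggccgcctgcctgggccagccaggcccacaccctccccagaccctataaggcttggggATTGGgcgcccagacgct
Plin3: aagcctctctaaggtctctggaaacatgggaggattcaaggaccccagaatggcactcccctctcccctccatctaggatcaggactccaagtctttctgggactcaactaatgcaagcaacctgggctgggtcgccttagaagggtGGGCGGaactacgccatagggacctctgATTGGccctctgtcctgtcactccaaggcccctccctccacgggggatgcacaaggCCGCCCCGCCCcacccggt
Pnpla2: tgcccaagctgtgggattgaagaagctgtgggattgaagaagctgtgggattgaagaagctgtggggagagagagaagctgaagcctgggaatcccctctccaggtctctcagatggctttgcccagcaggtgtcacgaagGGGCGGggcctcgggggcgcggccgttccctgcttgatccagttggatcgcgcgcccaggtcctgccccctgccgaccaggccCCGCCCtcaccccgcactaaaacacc
Plin2: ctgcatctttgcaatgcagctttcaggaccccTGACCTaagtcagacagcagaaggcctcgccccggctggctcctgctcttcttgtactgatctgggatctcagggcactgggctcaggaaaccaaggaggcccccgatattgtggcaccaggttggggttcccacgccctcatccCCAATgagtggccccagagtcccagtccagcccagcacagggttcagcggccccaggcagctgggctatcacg

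In these windows *Plin4* held 1 CCAAT on the minus strand, at -18 to -14 from the start. *Plin3* held 1 CCAAT and 3 GGGCGG, of which the pair at -19 to -14 and -14 to -9 shares 1 base. *Pnpla2* held 2 GGGCGG, and *Plin2* held 1 CCAAT and 1 AGGTCA. Of all 32851 windows of this length, 33.8% hold CCAAT, 32.7% GGGCGG, 14% AGGTCA and 6.02% CACGTG. The direct repeat of AGGTCA with 1 base between its copies, the form that PPAR and RXR bind together, was in 0 of the 11 windows of the 8 matched genes (*Lipe*, *Mgll* and *Plin5* have 2 starts each) and in 0.0335% of all windows, and no match says only that these letters are not in these windows. *Dgat1* and *Dgat2* had no window in the RefSeq table used.

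*Lipe* encodes hormone-sensitive lipase. The WT replicates 1, 7 and 8 gave 2.42, 2 and 2.36 FPKM, and the KO replicates of the same numbers gave 3.40, 13.5 and 5.38 FPKM. The WT libraries lay within 1.21-fold of each other and each KO library exceeded them, but KO replicate 7 was 3.98 times KO replicate 1. The log2 fold change of 1.44 (standard error 0.44, 95% confidence interval 0.41 to 2.47, limma adjusted p = 0.108) was 0.90 (standard error 0.23, adjusted p = 0.214) without KO replicate 7 and 1.02 (standard error 0.41, adjusted p = 0.448) after the correction for GC content. *Lipe* (ENSMUSG00000003123) lies on the minus strand at chr7:25379527-25398710.

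*Mgll* encodes the lipase of the last step. In replicates 1, 7 and 8 it had 9.51, 7.80 and 9.13 FPKM for WT and 9.65, 17.3 and 10.7 FPKM for KO mice. Each KO library exceeded each WT library, though KO replicate 1 by a margin smaller than the spread among WT libraries. Its log2 fold change was 0.46 (standard error 0.22, limma adjusted p = 0.227), 0.21 without KO replicate 7 and 0.093 after the correction for GC content. *Mgll* (ENSMUSG00000033174) lies at chr6:88724412-88828360 on the plus strand.

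*G0s2* encodes the inhibitor of ATGL. For WT replicates 1, 7 and 8 its level was 4.52, 3.67 and 2.88 FPKM, compared with 4.65, 8.19 and 4.25 FPKM for KO replicates 1, 7 and 8. KO replicate 8 lay under WT replicate 1, so the genotypes overlapped. *G0s2* (ENSMUSG00000009633, chr1:193272161-193273217, minus strand) is a short gene with 1 annotated transcript, and these values stand for about 45 to 114 fragments per library. Its log2 fold change was 0.57 (standard error 0.27, limma adjusted p = 0.227), 0.28 without KO replicate 7 and 0.16 after the correction for GC content. The ratio of inhibitor to lipase, *G0s2* to *Pnpla2*, was 0.0713 ± 0.0267 (SD, n = 3) in WT and 0.0591 ± 0.0126 (SD, n = 3) in KO muscle, a log2 difference of -0.24 (exact permutation test, two-sided, p = 0.6). *Lipe* to *Pnpla2* (log2 difference 0.63, exact permutation p = 0.4) and *Mgll* to *Pnpla2* (log2 difference -0.36, exact permutation p = 0.3) overlapped between the genotypes as well. The first was 0.24 without KO replicate 7, and the second ran from -0.60 without WT replicate 7 to -0.17 without WT replicate 1.

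*Dgat2* encodes the DGAT that works on the droplet surface and on fatty acids made in the cell. Its FPKM values were 7.78, 2.46 and 2.01 for WT replicates 1, 7 and 8 against 5.07, 22.0 and 8.61 for KO replicates 1, 7 and 8. WT replicate 1 lay above KO replicate 1, and the range within WT (3.87-fold) was close to that within KO (4.33-fold). The log2 fold change of 1.51 was the largest of the 10 and also the least certain (standard error 0.63, 95% confidence interval 0.036 to 2.99, limma adjusted p = 0.184). It was 0.94 without KO replicate 7, 2.10 without WT replicate 1 and 1.04 after the correction for GC content. *Dgat2* (ENSMUSG00000030747) lies on the minus strand at chr7:99153658-99182719.

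*Dgat1* encodes the DGAT of the endoplasmic reticulum that re-esterifies fatty acids taken up or released by lipolysis. The WT replicates 1, 7 and 8 gave 3.75, 5.51 and 5.56 FPKM, and the KO replicates of the same numbers gave 4.72, 8.76 and 7.23 FPKM. KO replicate 1 lay within the WT range. The difference on the log2 scale was 0.45 (standard error 0.25, 95% confidence interval -0.14 to 1.05, limma adjusted p = 0.292) and 0.14 after the correction for GC content. It was 0.26 without KO replicate 7, 0.27 without WT replicate 1 and 0.70 without KO replicate 1. *Dgat1* (ENSMUSG00000022555, chr15:76502015-76511953, minus strand) was above *Dgat2* in WT replicates 7 and 8 and below it in the other 4 libraries. The ratio of *Dgat2* to *Dgat1* was 2.07, 0.446 and 0.362 in WT replicates 1, 7 and 8 and 1.07, 2.5 and 1.19 in KO replicates 1, 7 and 8, with a log2 difference of 1.06 (exact permutation test, two-sided, p = 0.3). That difference ranged from 0.60 without WT replicate 8 to 1.83 without WT replicate 1.

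**Figure D3:**
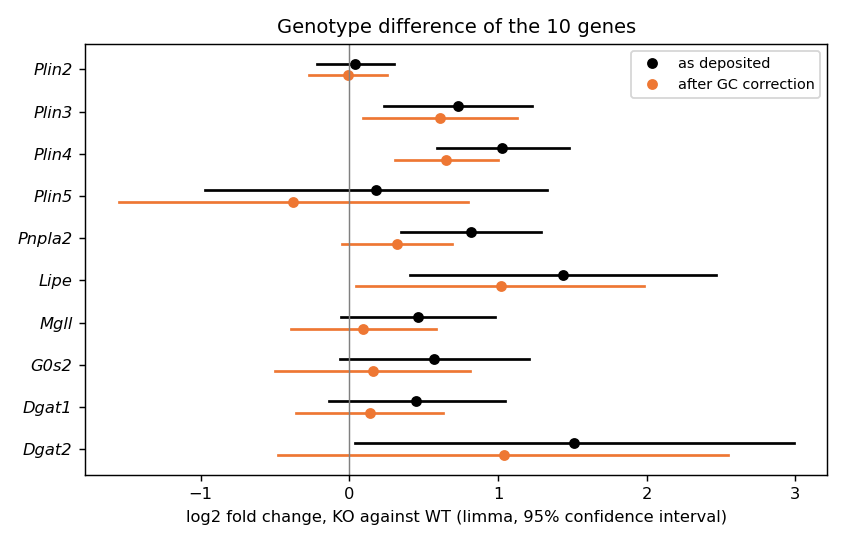
Log2 fold change of the 10 genes, KO against WT, with limma's 95% confidence interval, for the values as deposited (black) and after each library was corrected for its trend on GC content (orange). The correction moves every gene to the left, takes *Plin2* and *Plin5* past 0 and leaves *Plin4* (0.65), *Plin3* (0.61) and *Lipe* (1.02) with intervals above 0.

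Markers of adipocytes moved with the spread of *Lipe* and *Dgat2*. Of 9 markers, 8 were tested, and 8 of 8 had a log2 fold change above 0 with a median of 1.83. Of these, 5 (*Adipoq*, *Plin1*, *Cidec*, *Retn* and *Cfd*) were higher at an unadjusted p under 0.05, where 15.3% of all tested genes were, and 0 passed limma's adjusted p of 0.05. After the correction for GC content the median was 1.62, and 5 were higher at that unadjusted p, where 5.33% of all tested genes were. The summed FPKM of the 9 markers ranged from 234.5 to 444.2 in the WT and from 304.6 to 627.5 in the KO libraries. *Fabp4*, which endothelial cells also express, made up most of it. The other 8 summed to 35.4, 7.99 and 19.7 FPKM for WT replicates 1, 7 and 8 against 46.7, 177 and 45.5 FPKM for KO replicates 1, 7 and 8, with the highest sum in KO replicate 7 and a higher sum in each KO than in each WT library. No marker was listed at 0 in all libraries, and *Adrb3* was listed at 0 in WT replicate 8.

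*Plin1*, the perilipin of adipocytes, had 0.192, 0.138 and 0.5 FPKM for WT replicates 1, 7 and 8 against 1.14, 7.37 and 1.37 FPKM for KO replicates 1, 7 and 8 (log2 fold change 2.79, limma adjusted p = 0.0852). *Cidec*, which fuses droplets in fat cells, had 3.49, 0.714 and 2.12 FPKM for WT replicates 1, 7 and 8 against 4.25, 24.5 and 6.30 FPKM for KO replicates 1, 7 and 8. KO replicate 7 was the highest library for the 9 markers, as it was for 8 of the 10 coat, lipase and DGAT genes. Among the WT libraries replicate 1 had the most *Dgat2* and the highest value of 6 of the 9 markers, while *Plin1* and *Retn* were highest in replicate 8 and *Ucp1* in replicate 7. *Plin4* followed another order, with its highest value in KO replicate 8 and a log2 fold change of 0.99 without KO replicate 7. Without that library the log2 fold changes of *Pnpla2* and *Plin3* were 0.66 and 0.60, and the median over the adipocyte markers was 1.21. The part of adipocyte RNA in the values of the 10 genes was not tested.

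**Figure D4:**
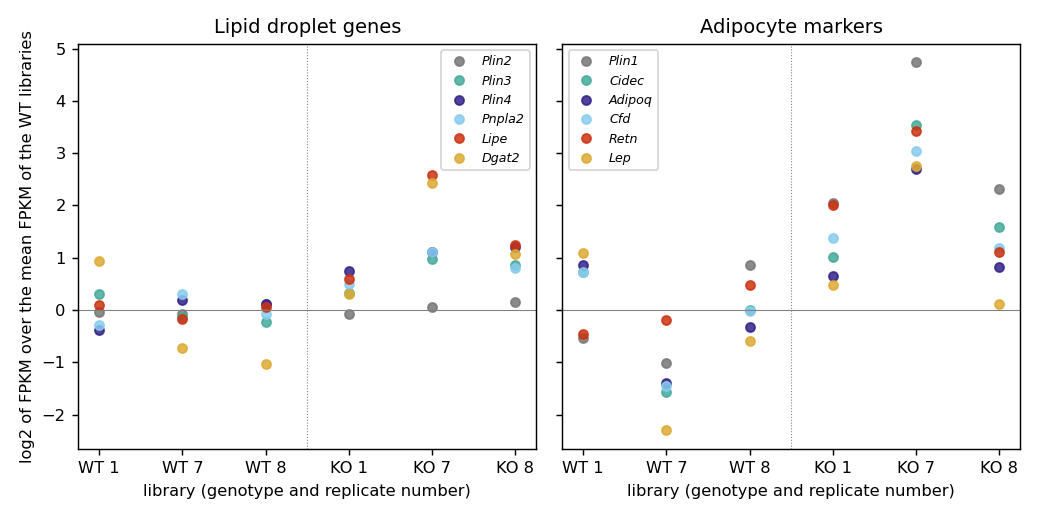
Log2 of each library's FPKM over the mean FPKM of the 3 WT libraries, for 6 lipid droplet genes (left) and 6 adipocyte markers (right), with WT libraries left and KO libraries right of the dotted line. *Plin3*, *Pnpla2*, *Lipe* and *Dgat2* are highest in KO replicate 7, as are the adipocyte markers, while *Plin4* is at a similar height in KO replicates 7 and 8 and *Plin2* stays near 0.

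The steps before DGAT were looked at through 14 genes of glycerolipid synthesis, of which 11 were tested. Of these, 4 (*Agpat1*, *Agpat2*, *Agpat3* and *Lpin3*) had a higher mean in KO mice with an unadjusted p under 0.05 (15.3% of all tested genes did), 0 a lower mean and 0 passed limma's adjusted threshold, with a median log2 fold change of 0.15 (0.057 without KO replicate 7). *Agpat2*, an acyltransferase that fat cells need, had the largest difference, at 2.45, 1.04 and 1.94 FPKM in WT and 2.33, 8.89 and 3.27 FPKM in KO replicates 1, 7 and 8 (log2 fold change 1.21, adjusted p = 0.182), again with KO replicate 7 on top. *Agpat4* followed with 0.65 (adjusted p = 0.196). The lowest values were those of *Gpat3* (log2 fold change -0.42, adjusted p = 0.380) and *Agpat5* (-0.23, adjusted p = 0.377). *Lpin1*, the main phosphatidate phosphatase of muscle, overlapped fully between the genotypes at 27.1 to 52.0 FPKM in WT and 34.9 to 47.0 FPKM in KO muscle (log2 fold change 0.071, adjusted p = 0.876). After the correction for GC content 0 of the 11 were higher at an unadjusted p under 0.05, where 5.33% of all tested genes were, and the median was 0.039. *Agpat1* turned from a log2 fold change of 0.40, with its KO libraries on top, to -0.17, with its KO libraries under the WT libraries.

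Of 22 other genes of droplet assembly and lipolysis, 18 were tested, of which 6 were higher and 1 (*Rab18*) lower at an unadjusted p under 0.05, where 15.3% of all tested genes were higher and 10.9% lower. None passed limma's adjusted threshold, and the median log2 fold change was 0.35 (0.13 without KO replicate 7). The largest differences were those of *Plin1* (2.79) and *Cidec* (2.24), given above, and the lowest those of *Rab18* (-0.44, adjusted p = 0.114), a small GTPase of the droplet surface, and *Snap23* (-0.13, adjusted p = 0.574). *Abhd5*, the activator of ATGL, was level at 15.3, 16.0 and 17.4 FPKM in WT and 15.6, 15.3 and 17.0 FPKM in KO replicates 1, 7 and 8 (log2 fold change -0.025, adjusted p = 0.900). *Lpl*, which releases fatty acids from circulating triglyceride, was at 120.7, 77.8 and 44.6 FPKM in WT and 53.7, 149.5 and 113.2 FPKM in KO replicates 1, 7 and 8, lowest in the same 2 libraries as *Plin5*. *Fitm1*, a muscle gene for the partitioning of triglyceride into droplets, was picked after its values were seen. It was at 50.8, 64.5 and 80.1 FPKM in WT and 102, 125.1 and 115.1 FPKM in KO replicates 1, 7 and 8, without overlap (log2 fold change 0.83, adjusted p = 0.0724), and at 60.6% GC its log2 fold change was 0.18 after the correction. *Gpihbp1*, the endothelial anchor of lipoprotein lipase and also picked after its values were seen, was at 14.9 to 18.9 FPKM in WT and 26.7 to 28.5 FPKM in KO muscle (log2 fold change 0.69, adjusted p = 0.0667, and 0.33 after the correction). With the correction 2 of the 18 (*Plin1* and *Cidec*, both also among the adipocyte markers) were higher and 0 lower at an unadjusted p under 0.05. Of all tested genes 5.33% were then higher and 5.4% lower. The median of the list was 0.16.

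Several of the 10 genes are known targets of PPAR receptors, and 24 other PPAR target genes of muscle were set beside them, of which 22 were tested. At an unadjusted p under 0.05, 2 of the 22 were higher in the KO mice (*Cpt1b* and *Hadha*), a smaller share than the 15.3% of all tested genes, 0 were lower and 0 passed limma's adjusted threshold. The median log2 fold change was 0.25, and it was 0.041 without WT replicate 8 and 0.11 without KO replicate 7. *Cpt1b*, which admits fatty acids to the mitochondria of muscle, was at 61.7 to 74.5 FPKM in WT and 85.5 to 110.5 FPKM in KO muscle (log2 fold change 0.52, adjusted p = 0.0859). The largest difference was that of *Angptl4* (log2 fold change 0.87, adjusted p = 0.430), a secreted inhibitor of lipoprotein lipase, and the lowest were those of *Pdk4* (-0.31, adjusted p = 0.720) and *Vldlr* (-0.29, adjusted p = 0.302). *Pdk4*, a kinase that turns muscle from glucose to fat, was at 125.4, 111.4 and 56.5 FPKM in WT and 34.0, 101.6 and 119.9 FPKM in KO replicates 1, 7 and 8. Its spread within each genotype was larger than the difference between them. After the correction for GC content the median of the list was 0.10.

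**Figure D5:**
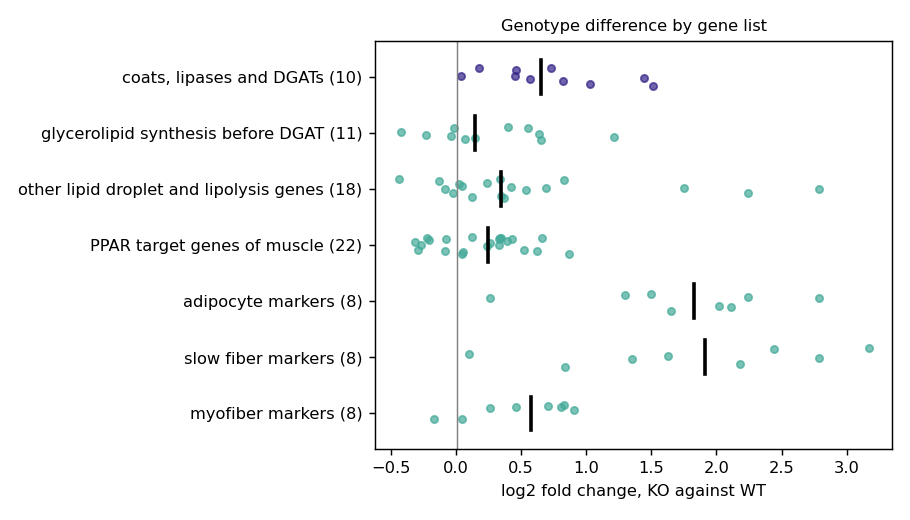
Log2 fold change, KO against WT, of each tested gene of the 10 coat, lipase and DGAT genes and of 6 other lists (number of tested genes in parentheses), with a black bar at the median of each list and a grey line at the median of all tested genes (0.010). The 10 genes have a median of 0.65, close to the 0.58 of the myofiber markers, and the other lipid lists have 0.15 to 0.35. After the correction for GC content, which is not drawn, the first 2 are 0.24 and 0.28. The adipocyte and slow fiber markers have 1.83 and 1.91, of which the last is 0.22 without WT replicate 8.

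*Plin4* had the lowest p of the 10 (unadjusted p = 0.000818 in limma). The tested genes most like it by Pearson's r of log2 values over the 6 libraries were *Ppox* (r = 0.9975), *Ptpn23* (0.9957), *Bcat2* (0.9952), *Gm13826* (0.9947) and *Cpsf1* (0.9935). These r describe 6 libraries of 2 genotypes and were picked as the highest among 12334 genes. All 5 had their 3 KO libraries above their 3 WT libraries, as 18.3% of all tested genes did. This followed from picking them for likeness to *Plin4*, which separates the genotypes in the same way. Their log2 fold changes were 0.63 to 1.35 and their GC content 51.7% to 58.5%.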

How the data were processed

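RNA-seq of GAS muscle from 3 WT and 3 KO mice was analysed from 1 table of FPKM. The authors prepared libraries with a stranded mRNA kit, mapped reads to GRCm38 with TopHat and deposited FPKM from Cufflinks. Versions and the annotation release are not given in the sources used here. Groups and replicate numbers came from the sample titles. Depth was estimated from the steps of low FPKM in genes with 1 transcript of 1500 to 6000 bases, where 91.2% to 95.6% of values fell within 0.15 of a whole fragment. At most 1 value above 0 was identical between any pair of libraries.

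limma 3.58.1 in R 4.3.3 was run with a variance trend on log2(FPKM + 0.1), and p-values were adjusted (Benjamini-Hochberg) over all 12334 tested genes. On this scale the change of low genes is understated. Ratios between genes were compared by two-sided exact permutation tests. For GC content, a loess curve (span 0.3) was fitted in each library to the deviations of genes from their mean and subtracted, for the 97.2% of tested genes found in GENCODE M21. Scripts were tested on simulated data.

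The 10 genes and all lists were chosen with earlier results of these data known. Of the 123 listed genes, 6 were matched by identifier under another symbol. The genes named were the 2 highest and 2 lowest log2 fold changes per lipid list, *Abhd5*, *Plin1*, *Lpin1*, *Lpl*, *Angptl4* and *Pdk4*, and the 5 genes most like the member with the lowest p. A gene that this rule names is not reported here. Other list genes are named because of their p, after their values were seen, or as markers. Alternatives covered the pseudocount, filter, scaling, variance model, array weights, replicate block, GC content, length and each library left out. Leaving out KO replicate 7 and WT replicate 8 together, and GC correction without KO replicate 7, were chosen after seeing the data. Figures were drawn with matplotlib 3.10.9.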

Additional observations from a re-analysis of the deposited data

How the results depend on the processing

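The 40 genes called among all tested genes became 11 with a pseudocount of 1, 20 without the filter on low values, 18 with quantile normalization, 19 without the variance trend, 19 after length correction, 14 after GC correction, 14 after GC correction without KO replicate 7, 12 without KO replicate 7 and WT replicate 8, 3147 with array weights and 11 to 38 with each library left out. With array weights, 6 of the 10 genes (*Dgat2*, *Lipe*, *Mgll*, *Plin3*, *Plin4* and *Pnpla2*) were called where 25.5% of all tested genes were, and 0 were called under each other alternative. The 5 genes with an unadjusted p under 0.05, where 15.3% of all tested genes were higher, became 3 after GC correction, where 5.33% were higher. They became 2 without KO replicate 7 and WT replicate 8 and 1 (*Plin4*) after GC correction without KO replicate 7. With each library left out they became 2 (without WT replicate 7) to 7 (without KO replicate 1). The share of all tested genes was not computed for these fits with libraries left out, so the counts cannot be set against it. The 5 genes without overlap became 3 with median centring, where 16.2% of all tested genes had the KO libraries on top, 1 after GC correction, where 8.14% had, and 5 to 7 with each library left out, where 21.5% to 24.9% had. The log2 fold changes of *Plin3*, *Plin4*, *Pnpla2*, *Lipe* and *Dgat2* stayed above 0 in all 20 alternatives. That of *Plin2* was -0.0088 with median centring, -0.0090 after GC correction, -0.048 after length correction, -0.017 after GC correction without KO replicate 7 and -0.015 to 0.10 with each library left out. That of *Plin5* was -0.38 after GC correction, -0.62 without KO replicate 7 and WT replicate 8, -0.73 after GC correction without KO replicate 7 and -0.23 to 0.64 with each library left out. The last-named correction also gave -0.12 for *Mgll*, -0.087 for *G0s2* and -0.021 for *Dgat1*. The log2 difference of the ratio of *Plin5* to *Plin2* was -0.37 after GC correction and -0.31 to 0.54 with each library left out, and that of *G0s2* to *Pnpla2* was -0.40 to 0.041, above 0 only without WT replicate 1. The cause of these moves was not tested. With fewer fragments in every KO than in every WT library, depth and genotype cannot be told apart.

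Same-numbered libraries did not deviate together (correlations of their deviations -0.0252, -0.0797 and 0.0343 for replicates 1, 7 and 8, and only KO replicate 8 correlated best with its own number), so the replicate block is given here alone. With the replicate block 13 genes were called in all and 0 of the 10, while 6 of the 10 had an unadjusted p under 0.05. With GC correction and the replicate block these were 12 and 0, and the log2 fold changes of *Plin2* and *Plin5* were -0.0090 and -0.38. The unadjusted count was then 2 of the 10. For both of these unadjusted counts the share of all tested genes was not computed.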

Other observations

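The 4 endothelial markers summed to 34.8 to 37.0 FPKM in WT and 32.7 to 43.0 FPKM in KO muscle, with a median log2 fold change of 0.034, and the 4 fibroblast markers to 369.5 to 526.9 FPKM and 350.8 to 445.1 FPKM, with a median of 0.052. The 4 macrophage markers summed to 2.88 to 9.15 FPKM in WT and 6.64 to 12.9 FPKM in KO muscle, with a median of 0.37. The 4 Schwann cell markers had a median of 0.076 and were highest in KO replicate 7 (130.5 FPKM in sum) and WT replicate 7 (101.8 FPKM) and lowest in WT replicate 8 (27.2 FPKM). The 4 hemoglobin genes summed to 239 to 310.3 FPKM in WT and 263.1 to 542 FPKM in KO muscle, and *Hba-a1* and *Hba-a2* had their 3 KO libraries above their 3 WT libraries, though reads of these near-identical copies may have been split between them. The 7 tested fast fiber markers had a median log2 fold change of 0.24 and the 8 myofiber markers of 0.58. After the correction for GC content these 2 medians were -0.14 and 0.28. Those of the endothelial, fibroblast, macrophage and Schwann cell markers were then 0.065, 0.29, 0.44 and -0.10. None of these genes had an adjusted p under 0.05 in limma. At an unadjusted p under 0.05, 1 endothelial gene (*Kdr*) was lower while 1 fibroblast gene (*Col1a1*), 2 hemoglobin, 1 fast fiber and 4 myofiber genes were higher in the KO mice. Of all tested genes 15.3% were higher and 10.9% lower at that threshold. After the correction for GC content 1 hemoglobin, 1 fast fiber and 1 myofiber gene were higher, where 5.33% of all tested genes were, and 0 endothelial or fibroblast genes passed.

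*Fabp3*, the fatty acid binding protein of muscle, was at 215.3, 157.9 and 85.2 FPKM in WT and 98.9, 275.5 and 260.7 FPKM in KO replicates 1, 7 and 8, and *Mb*, which encodes myoglobin, was at 1825, 1069 and 543.1 FPKM in WT and 997, 3150 and 2260 FPKM in KO replicates 1, 7 and 8. Both were lowest in WT replicate 8, and among KO libraries in KO replicate 1, and were picked after their values were seen.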
